A study of Homo sapiens with 4 samples.

Results

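Aminoacyl-tRNA synthetases and 2 scaffold proteins that hold some of them together were followed in WT cells and ZCCHC4 KO1 cells. The members were chosen by gene name alone: every listed Entrez identifier whose RefSeq symbol was that of a cytosolic or a mitochondrial synthetase, together with AIMP1 and AIMP2. The rule found 39 of the 16658 genes in the table, namely 20 cytosolic synthetase genes, 17 mitochondrial ones and the 2 scaffold genes. All 39 passed the filter on low values, an FPKM of at least 1 in at least 2 libraries, as did 10726 genes in all.

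RNA-seq was done on 2 libraries of WT cells (genotype wildtype) and 2 libraries of ZCCHC4 KO1 cells (ZCCHC4 knockout by CRISPR/Cas9), 4 libraries in all. Both groups are labelled HepG2, a line established from a human liver tumor, and both were untreated and grown in DMEM with serum. ZCCHC4 KO1 is 1 of 3 knockout lines that the study made, so effects of the knockout and of this line cannot be told apart. The labels do not say whether the replicates of a group came from separate cultures, so the p-values measure only the spread between these libraries.

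Aminoacyl-tRNA synthetases join each amino acid to its own tRNAs and so set the genetic code in every round of translation. Animal cells keep separate sets for the cytosol and for the mitochondrion, both encoded in the nucleus. Symbols ending in 1, together with FARSA and FARSB, mark the cytosolic set, and symbols ending in 2, other than AIMP2, mark the mitochondrial set. KARS1 and GARS1 serve both compartments. Several cytosolic enzymes sit in a multisynthetase complex around the scaffold proteins AIMP1, AIMP2 and EEF1E1. Many cytosolic synthetase genes are known targets of ATF4, the transcription factor of the response to amino acid shortage. ZCCHC4 itself methylates adenosine in 28S ribosomal RNA and is an RNA-binding protein.

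The values are FPKM, fragments scaled to transcript length and to all mapped fragments, so levels can be compared between genes, but read totals are not known and counting error cannot be given. They summed to between 512417 and 565198.6 per library. ZCCHC4, the targeted gene, was at 7.22 and 5.44 in the WT libraries, against 1.08 and 2.29 in ZCCHC4 KO1, a log2 fold change of -1.48 with a standard error of 0.287 (limma, adjusted p = 0.0448, with the Benjamini-Hochberg method over all genes tested). Without ZCCHC4 KO1 replicate 1 this change was -1.15, with an adjusted p of 0.0514 from limma. The label HepG2 was checked against 21 hepatocyte genes: 12 were listed, only VTN was at 1 FPKM or more in each WT library, and the 12 summed to between 1.41 and 2.73 FPKM per library, with AFP at 0 in 3 of the 4 libraries. Of 5 epithelial genes KRT7, KRT8 and KRT18 were high and KRT19 and EPCAM at or near 0, and the 5 summed to 5243.51 and 6095.09 FPKM in the WT libraries, against 9259.96 and 7068.92 in ZCCHC4 KO1, higher in both. Of 3 mesenchymal genes VIM was high, CDH2 lower in level and FN1 near 0, and the 3 summed to 566.35 and 578.95 FPKM in the WT libraries, against 406.91 and 439.41 in ZCCHC4 KO1, lower in both. The part of these genes in the results was not tested. The cells are therefore named below by their labels only.

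Of the sequences near these genes, those shown here hold the recognition element of ATF4 with its C/EBP partners, because this family is known for it. The letters TGATGCAA were searched on both strands, where the opposite strand reads TTGCATCA, in windows from 250 bases before to 50 bases after each transcript start (RefSeq, GRCh38.p14). Promoter windows were at hand for 32 of the 39 genes. The element was in 6 of these 32 genes (18.8%), all of them cytosolic, against 1.08% of 27305 genes with such a window and 0.702% of the 8827 tested genes with one. In the lines below, 30 bases are printed on the strand of the gene, with the element in capitals.
AARS1 (chr16:70289675-70289704, minus strand): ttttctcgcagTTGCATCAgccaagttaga
CARS1 (chr11:3057407-3057436, minus strand): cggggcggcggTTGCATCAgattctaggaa
IARS1 (chr9:92293692-92293721, minus strand): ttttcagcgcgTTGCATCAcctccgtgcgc
MARS1 (chr12:57488053-57488082, plus strand): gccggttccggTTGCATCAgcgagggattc
NARS1 (chr18:57621804-57621833, minus strand): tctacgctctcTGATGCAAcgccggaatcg
TARS1 (chr5:33440956-33440985, plus strand): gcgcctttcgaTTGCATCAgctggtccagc

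In AARS1 the element begins 187 bases before the start, and in the other 5 genes it lies within 14 bases of a listed start. In CARS1, IARS1, MARS1, TARS1 and AARS1 it reads TTGCATCA on the strand of the gene, and in NARS1 it reads TGATGCAA. These 6 genes did not share a direction in ZCCHC4 KO1 cells. Their log2 fold changes ran from -0.73 for NARS1 to 0.33 for CARS1, with 2 above 0 and 4 below, and 0 of the 6 passed in limma, with 1, NARS1, at an unadjusted p under 0.05, where 5.98% of all tested genes were called and 22.9% had such a p. With the trend of each library on GC content removed, NARS1 and CARS1 passed, 2 of the 6, where 24.2% of all genes did. The match is of letters only, and no binding was measured.

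Cytosolic synthetase genes were expressed well above mitochondrial ones. The median FPKM of the 20 cytosolic genes was 74.7 and 72.5 in the WT libraries, against 65.8 and 68.8 in ZCCHC4 KO1, and that of the 17 mitochondrial genes was 17.0 and 18.1 in the WT libraries, against 17.5 and 19.2 in ZCCHC4 KO1. The cytosolic genes summed to 1585.17 and 1573.24 FPKM in the WT libraries, against 1626.27 and 1613.04 in ZCCHC4 KO1. The mitochondrial genes summed to 369.87 and 366.4 in the WT libraries, against 345.41 and 358.07 in ZCCHC4 KO1. The ratio of these sums was 4.29 in both WT libraries and 4.71 and 4.5 in ZCCHC4 KO1. FARSA reached the highest level of the members, with up to 277.65 FPKM, and PARS2, the mitochondrial prolyl enzyme, the lowest, at 1.92 to 2.13. All 39 genes together held between 0.372% and 0.400% of the summed FPKM of a library.

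**Figure D1:**
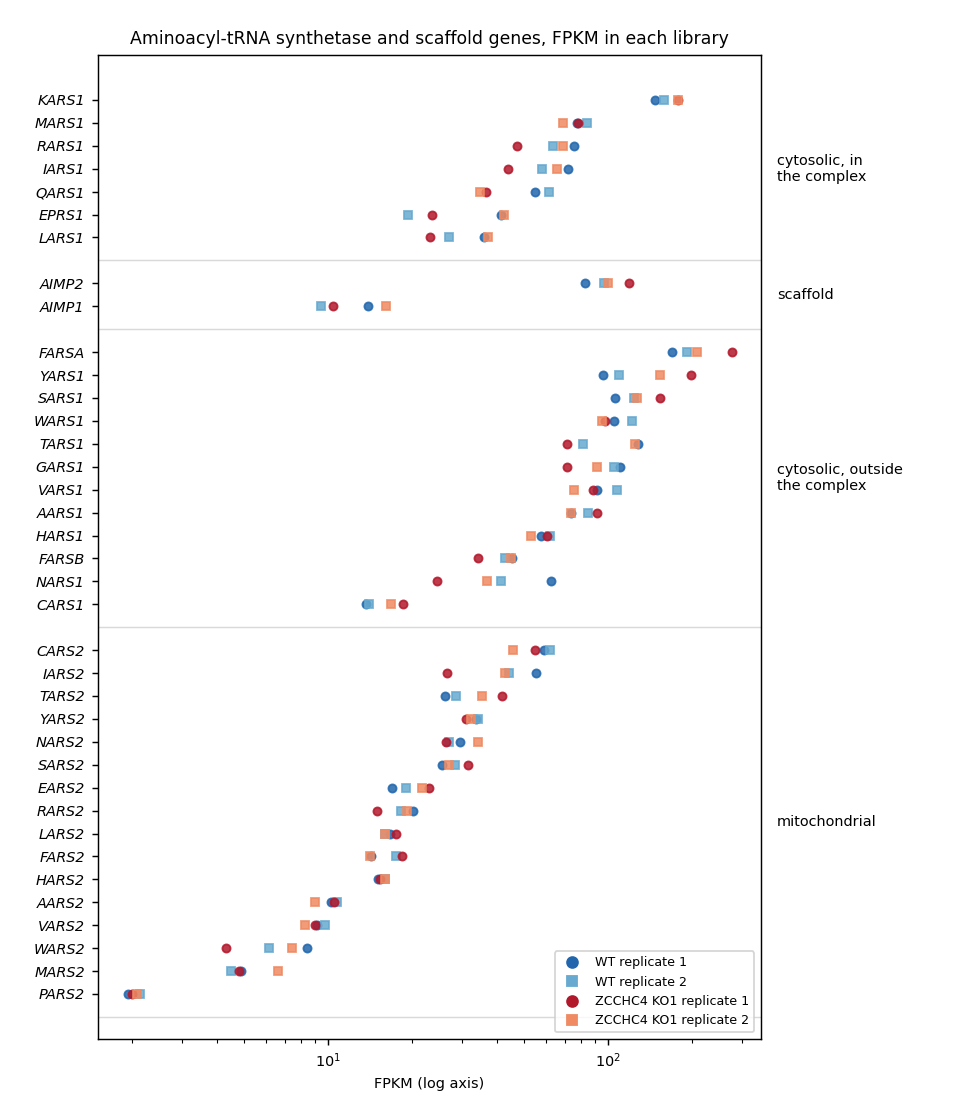
FPKM on a log axis of 37 of the 39 genes, by group and in order of mean level within a group; each point is 1 library, blue for WT and red for ZCCHC4 KO1, circles for replicate 1 and squares for replicate 2. FARSA, KARS1 and YARS1 lead the cytosolic genes and CARS2 leads the mitochondrial ones, and points of the same shape often lie on opposite sides in the 2 groups.

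Only 1 of the 39 genes passed an adjusted p of 0.05 between ZCCHC4 KO1 and WT cells, where 5.98% of all tested genes did. It was QARS1, which fell. Of the 20 cytosolic genes, 0 rose and 1 fell in limma, where 1.5% of all tested genes rose and 4.48% fell (25.1% of the calls over all genes were higher, a share that was 39.3% with quantile normalization and 46.7% with the trend on GC content removed). Of the 17 mitochondrial genes 0 passed in either direction. At an unadjusted p under 0.05 there were 4 cytosolic genes (QARS1, YARS1, NARS1 and GARS1) and 1 mitochondrial gene (TARS2), 5 of 39, against 22.9% of all tested genes. At an FDR below 0.001 and a fold of at least 2, limma called 0 members, and 0.0746% of all tested genes. The standard errors of the members ran from 0.124 to 0.419 on the log2 scale, and changes near these sizes were not detectable with 2 libraries per group. Without ZCCHC4 KO1 replicate 2, 3 members were called higher and 5 lower, and 14.9% of all genes were called.

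The median log2 fold change was -0.13 for the cytosolic genes and 0.01 for the mitochondrial genes, beside -0.03 for all genes tested. As deposited, 18 members were above 0 and 21 below, with the same counts under median-ratio scaling and under quantile normalization. In 8 members both ZCCHC4 KO1 libraries were above both WT libraries (20.5%, where 23.1% of all tested genes were so placed), and in 10 members both were below (25.6%, against 28.5%), 18 members in all, where 51.6% of all tested genes had groups apart. The shares among the members are near those among all genes. In bulk RNA a smaller number of cells with a transcript and less of it per cell cannot be told apart.

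**Figure D2:**
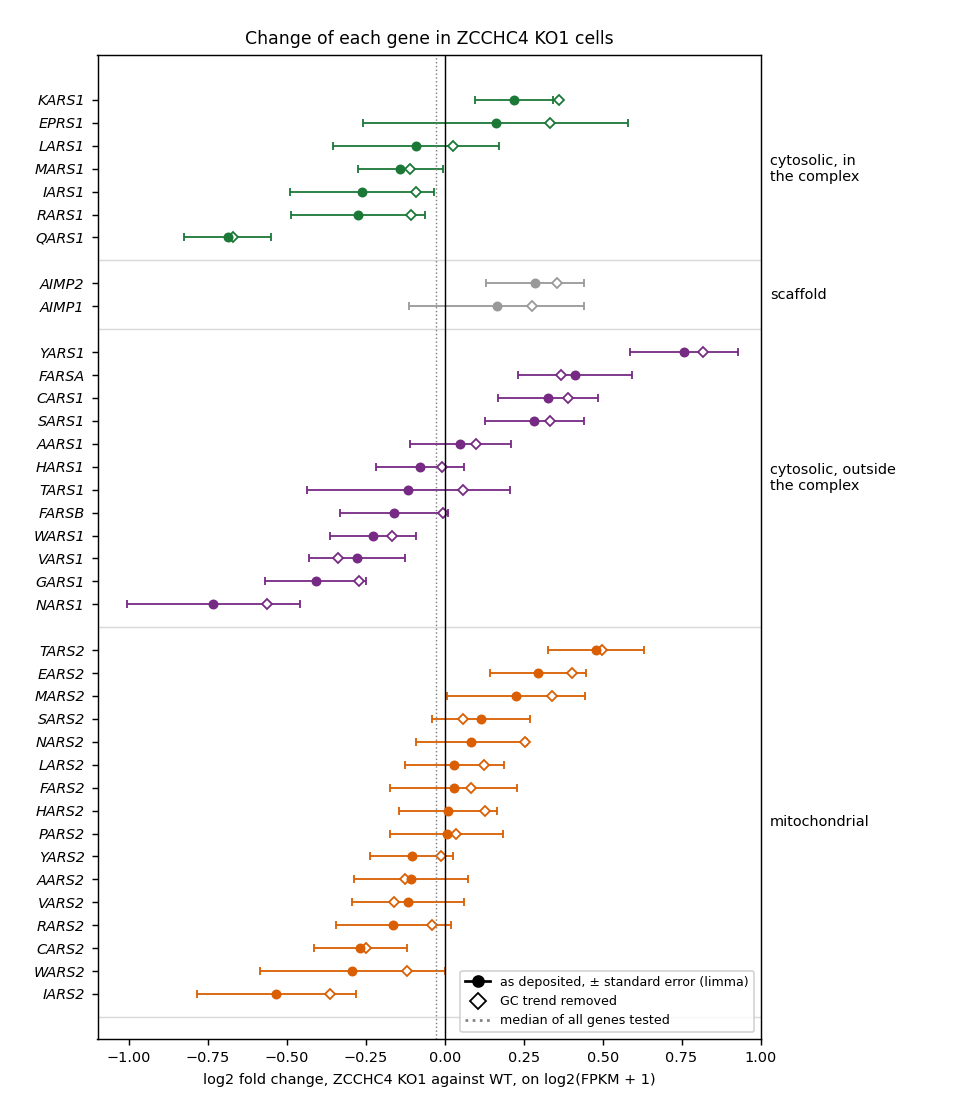
Log2 fold change of 37 of the 39 genes in ZCCHC4 KO1 against WT cells on the log2(FPKM + 1) scale; filled circles with bars give limma's estimate with its standard error from 2 libraries per group, open diamonds the estimate after removal of the trend on GC content, and the dotted line the median of all genes tested. QARS1 at -0.69 and YARS1 at 0.76 stand farthest from 0 relative to their standard errors, and NARS1 at -0.73 has a wider one.

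The multisynthetase complex holds 8 of the cytosolic enzymes. QARS1, which charges glutamine and lies on chromosome 3 from 49095932 to 49104757, was at 54.64 and 61.69 FPKM in the WT libraries, against 36.47 and 34.88 in ZCCHC4 KO1. All replicates were close and the groups did not overlap, with means of 58.2 ± 4.99 and 35.7 ± 1.12 (SD, n = 2 each). QARS1 fell by 0.69 on the log2 scale with a standard error of 0.137 (limma, adjusted p = 0.0470), a level 1.63-fold lower. Without WT replicate 1 the log2 fold change was -0.77, and without WT replicate 2 it was -0.60. In these fits limma took the spread from all genes of like level and not from QARS1, so only effect sizes are given. The call was lost with no filter on low values, with median-ratio scaling and in eBayes without a trend. With the replicate number as a block it was lost as well (adjusted p = 0.183 from limma), again with a spread shared by genes of like level. Over the alternatives that kept all 4 libraries the adjusted p from limma ran from 0.00646 to 0.183. This range leaves aside a crossed replicate block, which was added after the values were seen. The log2 fold change stayed between -0.70 and -0.61 in all 10 alternatives, the crossed block included.

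The other enzymes of the complex did not pass the test. KARS1, the lysyl enzyme of both compartments, was at 147.13 and 158.16 in the WT libraries, against 177.68 and 177.88 in ZCCHC4 KO1, a log2 fold change of 0.22 (standard error 0.124). KARS1 was thus higher in both ZCCHC4 KO1 libraries, by 1.16-fold in the means. MARS1, which charges both initiator and elongator methionine tRNAs, was at 77.67 and 84.26 in the WT libraries, against 77.89 and 68.94 in ZCCHC4 KO1, and its groups overlapped. MARS1 shares genomic sequence with DDIT3 and ARHGAP9, and without stated strand the reads of such genes could be divided between them.

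A further 4 genes of the complex differed more between replicates than between groups. EPRS1, which charges both glutamate and proline, was at 41.39 and 19.21 in the WT libraries, against 23.58 and 42.55 in ZCCHC4 KO1. LARS1, the leucyl enzyme, was at 36.04 and 27.1 in the WT libraries, against 23.04 and 37.15 in ZCCHC4 KO1. In both genes WT replicate 1 and ZCCHC4 KO1 replicate 2 were the high libraries. IARS1, the isoleucyl enzyme, was at 72.07 and 57.91 in the WT libraries, against 43.76 and 65.8 in ZCCHC4 KO1. RARS1, the arginyl enzyme, was at 75.56 and 63.35 in the WT libraries, against 47.29 and 68.72 in ZCCHC4 KO1. In IARS1 and RARS1 the lowest of the 4 libraries was ZCCHC4 KO1 replicate 1, and the groups overlapped.

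The scaffold genes did not pass the test. AIMP2, the platform on which the complex is built, was at 82.68 and 96.63 in the WT libraries, against 118.99 and 100.06 in ZCCHC4 KO1, with a log2 fold change of 0.28 (standard error 0.155) and groups that did not overlap. AIMP2 overlaps EIF2AK1 on the chromosome, a gene with a log2 fold change of -0.67 that did not pass. AIMP1, also known as the precursor of a secreted cytokine, was at 13.86 and 9.44 in the WT libraries, against 10.44 and 16.03 in ZCCHC4 KO1, and its groups overlapped. EEF1E1, the third scaffold gene and not a member by the rule, was at 47.27 and 33.48 in the WT libraries, against 29.29 and 42.43 in ZCCHC4 KO1.

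Outside the complex, YARS1, the tyrosyl enzyme, had a larger log2 fold change than any other member as deposited. It lies on chromosome 1 from 32775239 to 32817358 and was at 96.01 and 109.37 FPKM in the WT libraries, against 197.82 and 152.64 in ZCCHC4 KO1. Both ZCCHC4 KO1 libraries were above both WT libraries, with means of 102.7 ± 9.45 and 175.2 ± 31.9 (SD, n = 2 each), 1.71-fold apart. The log2 fold change was 0.76 with a standard error of 0.171 (limma, adjusted p = 0.0645), which did not pass. Over the alternatives with all 4 libraries the adjusted p of YARS1 from limma was as high as 0.124. YARS1 passed with median-ratio scaling (adjusted p = 0.0456 from limma), with quantile normalization (adjusted p = 0.00678) and with the trend on GC content removed (adjusted p = 0.0127). It also passed without ZCCHC4 KO1 replicate 2, at a log2 fold change of 0.94, and not without any of the other 3 libraries, at 0.57 to 0.85. YARS1 overlaps S100PBP on the chromosome.

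NARS1, the asparaginyl enzyme on chromosome 18 from 57600656 to 57621836, was at 62.25 and 41.28 in the WT libraries, against 24.45 and 37.02 in ZCCHC4 KO1. The groups did not overlap, but the WT replicates differed from each other by more than ZCCHC4 KO1 replicate 2 did from WT replicate 2. The log2 fold change was -0.73 with a standard error of 0.273 (limma, adjusted p = 0.188). Over the alternatives with all 4 libraries its adjusted p from limma ran from 0.0240 to 0.292. This range leaves aside the crossed replicate block, which was added after the values were seen. With the trend on GC content removed the log2 fold change was -0.56 and passed (adjusted p = 0.0240 from limma). Without WT replicate 2 it was -1.02 (adjusted p = 0.0428) and without ZCCHC4 KO1 replicate 2 also -1.02 (adjusted p = 0.0145), both from limma. Without WT replicate 1 it was -0.44 (adjusted p = 0.748) and without ZCCHC4 KO1 replicate 1 also -0.44 (adjusted p = 0.357), again from limma.

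The phenylalanyl enzyme is made of 2 different subunits, FARSA and FARSB, in equal number. FARSA was at 169.29 and 191.62 in the WT libraries, against 277.65 and 207.8 in ZCCHC4 KO1, a log2 fold change of 0.41 with a standard error of 0.180 (limma, adjusted p = 0.247). FARSB was at 45.25 and 42.78 in the WT libraries, against 34.31 and 44.97 in ZCCHC4 KO1, with groups that overlapped. The FPKM of FARSA was thus 3.74 and 4.48 times that of FARSB in WT and 8.09 and 4.62 times in ZCCHC4 KO1. ZCCHC4 KO1 replicate 1 was the library that stood apart in this ratio, and it is also the one with the highest FARSA and the lowest FARSB. The GC content was 60.3% for FARSA and 40.0% for FARSB, and replicates differed with GC content, as given below. With the trend on GC content removed the log2 fold changes were 0.37 for FARSA and -0.005 for FARSB. The part of that trend in the ratio was not tested. Without ZCCHC4 KO1 replicate 2 FARSA passed at a log2 fold change of 0.62 (adjusted p = 0.0361 from limma), whereas without ZCCHC4 KO1 replicate 1 it was at 0.21 (adjusted p = 0.564).

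GARS1, the glycyl enzyme of both compartments, was at 109.87 and 104.96 in the WT libraries, against 71.25 and 91.2 in ZCCHC4 KO1, a log2 fold change of -0.41 with a standard error of 0.159 (limma, adjusted p = 0.204). The groups did not overlap, and GARS1 passed at -0.59 without ZCCHC4 KO1 replicate 2 (adjusted p = 0.0354 from limma) and was at -0.23 without ZCCHC4 KO1 replicate 1 (adjusted p = 0.484). WARS1, the tryptophanyl enzyme that interferon-gamma is known to induce, was at 104.93 and 121.6 in the WT libraries, against 97.74 and 94.92 in ZCCHC4 KO1, a log2 fold change of -0.23 (standard error 0.135). VARS1, the valyl enzyme that binds elongation factor 1, was at 91.4 and 107.97 in the WT libraries, against 88.15 and 75.77 in ZCCHC4 KO1, a log2 fold change of -0.28 (standard error 0.153). These genes were lower in both ZCCHC4 KO1 libraries, and none of them passed as deposited.

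SARS1 and CARS1 were higher in both ZCCHC4 KO1 libraries without passing. SARS1, which also loads serine onto the selenocysteine tRNA, was at 105.85 and 123.28 in the WT libraries, against 152.95 and 126.82 in ZCCHC4 KO1, a log2 fold change of 0.28 (standard error 0.157). CARS1, the cysteinyl enzyme, was at 13.61 and 13.98 in the WT libraries, against 18.46 and 16.72 in ZCCHC4 KO1, a log2 fold change of 0.33 (standard error 0.158). CARS1 was among the lowest cytosolic genes in every library. It passed once the trend on GC content was removed (log2 fold change 0.39, adjusted p = 0.0433 from limma). Over the alternatives with all 4 libraries its adjusted p from limma ran from 0.0433 to 0.879, with the crossed replicate block left aside.

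AARS1, HARS1 and TARS1 had overlapping groups. AARS1, the alanyl enzyme, was at 73.81 and 84.73 in the WT libraries, against 90.86 and 73.69 in ZCCHC4 KO1. HARS1, the histidyl enzyme, was at 57.39 and 62.06 in the WT libraries, against 60.31 and 52.83 in ZCCHC4 KO1. TARS1, the threonyl enzyme, was at 127.57 and 81.58 in the WT libraries, against 71.27 and 124.26 in ZCCHC4 KO1. The spread of TARS1 within each group was larger than any difference between the group means.

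The mitochondrial synthetases charge the tRNAs with which mitochondria translate their own few proteins. TARS2, the threonyl enzyme on chromosome 1 from 150487419 to 150507602, was at 26.1 and 28.66 in the WT libraries, against 41.63 and 35.56 in ZCCHC4 KO1. Both ZCCHC4 KO1 libraries were higher, with means of 27.4 ± 1.81 and 38.6 ± 4.29 (SD, n = 2 each), 1.41-fold apart. The log2 fold change of 0.48 with a standard error of 0.152 (limma, adjusted p = 0.136) did not pass. With the trend on GC content removed it was 0.50 (adjusted p = 0.0186), and without ZCCHC4 KO1 replicate 2 it was 0.59 (adjusted p = 0.0498), both from limma, beside 0.37 (adjusted p = 0.327) without ZCCHC4 KO1 replicate 1. Over the alternatives with all 4 libraries its adjusted p from limma was as high as 0.562.

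IARS2, the isoleucyl enzyme, was at 55.24 and 44.2 in the WT libraries, against 26.65 and 42.87 in ZCCHC4 KO1, a log2 fold change of -0.53 with a standard error of 0.251 (limma, adjusted p = 0.282). The groups did not overlap, but ZCCHC4 KO1 replicate 2 was close to WT replicate 2. Without ZCCHC4 KO1 replicate 2 IARS2 passed at -0.87 (adjusted p = 0.0131 from limma), whereas without ZCCHC4 KO1 replicate 1 it was at -0.20 (adjusted p = 0.620).

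CARS2, the cysteinyl enzyme, was the highest mitochondrial gene, at 58.77 and 62.07 in the WT libraries, against 54.73 and 45.7 in ZCCHC4 KO1. EARS2, which loads glutamate onto the mitochondrial tRNAs for both glutamate and glutamine, was at 16.97 and 18.92 in the WT libraries, against 22.86 and 21.57 in ZCCHC4 KO1. CARS2 was lower and EARS2 higher in both ZCCHC4 KO1 libraries, with log2 fold changes of -0.27 (standard error 0.146) and 0.29 (standard error 0.153), and neither passed. YARS2, the tyrosyl enzyme, was at 33.8 and 34.42 in the WT libraries, against 30.96 and 32.33 in ZCCHC4 KO1. VARS2, the valyl enzyme, was at 9.14 and 9.71 in the WT libraries, against 8.99 and 8.25 in ZCCHC4 KO1. YARS2 and VARS2 were lower in both ZCCHC4 KO1 libraries, by 1.08-fold and 1.09-fold in the means.

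A further 10 mitochondrial genes had overlapping groups. NARS2, the asparaginyl enzyme, was at 29.45 and 27.05 in the WT libraries, against 26.26 and 34.19 in ZCCHC4 KO1. SARS2, the seryl enzyme, was at 25.45 and 28.34 in the WT libraries, against 31.47 and 26.99 in ZCCHC4 KO1. RARS2, the arginyl enzyme, was at 20.14 and 18.14 in the WT libraries, against 15 and 19.18 in ZCCHC4 KO1. The order of the libraries differed from gene to gene, and the next genes were lower in level. LARS2, the leucyl enzyme, was at 16.64 and 16.01 in the WT libraries, against 17.47 and 15.95 in ZCCHC4 KO1. FARS2, a single-chain phenylalanyl enzyme, was at 14.26 and 17.42 in the WT libraries, against 18.31 and 14.14 in ZCCHC4 KO1. HARS2, the histidyl enzyme, was at 15.06 and 15.99 in the WT libraries, against 15.36 and 15.93 in ZCCHC4 KO1. FARS2 overlaps LYRM4 on the chromosome.

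The lowest members were also mitochondrial. AARS2, the alanyl enzyme, was at 10.27 and 10.77 in the WT libraries, against 10.46 and 8.97 in ZCCHC4 KO1. WARS2, the tryptophanyl enzyme, was at 8.41 and 6.13 in the WT libraries, against 4.3 and 7.44 in ZCCHC4 KO1. MARS2, the methionyl enzyme, was at 4.87 and 4.51 in the WT libraries, against 4.81 and 6.6 in ZCCHC4 KO1. Of these, WARS2 varied most within its groups, again with WT replicate 1 and ZCCHC4 KO1 replicate 2 high. PARS2 was at 1.92 and 2.13 in the WT libraries, against 1.99 and 2.08 in ZCCHC4 KO1, a log2 fold change of 0.01 (standard error 0.180). At such levels the log2(FPKM + 1) scale understates any change.

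A ratio of 2 genes within a library does not depend on a scaling factor common to that library. It does keep the trend on GC content where the 2 genes differ in GC content, and no ratio was corrected for that trend. The cytosolic gene was set against the mitochondrial gene for the same amino acid. There are 18 such pairs, with FARSA and FARSB each set against FARS2, and EPRS1 against both EARS2 and PARS2. The cytosolic gene was above its mitochondrial partner in every library for 15 of them, and the ratios ran from 0.225 for CARS1 over CARS2 to 22.7 for WARS1 over WARS2. The 2 genes of a pair had log2 fold changes of opposite sign in 9 pairs and of the same sign in 9. The ratio was higher in both ZCCHC4 KO1 libraries than in both WT libraries in 6 pairs, and lower in 2. Of all tested genes taken singly, 51.6% had groups apart. Ratios of other gene pairs were not computed, so a shift between the 2 sets cannot be read from these counts.

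YARS1 over YARS2 was 2.84 and 3.18 in the WT libraries, against 6.39 and 4.72 in ZCCHC4 KO1. NARS1 over NARS2 was 2.11 and 1.53 in the WT libraries, against 0.931 and 1.08 in ZCCHC4 KO1. CARS1 over CARS2 was 0.232 and 0.225 in the WT libraries, against 0.337 and 0.366 in ZCCHC4 KO1. In these the groups did not overlap. IARS1 over IARS2 was 1.30 and 1.31 in the WT libraries, against 1.64 and 1.53 in ZCCHC4 KO1, with log2 fold changes of -0.26 for IARS1 and -0.53 for IARS2. TARS1 over TARS2, at 4.89 and 2.85 in the WT libraries, against 1.71 and 3.49 in ZCCHC4 KO1, overlapped.

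Glutamine has no mitochondrial synthetase of its own, and mitochondria make their glutaminyl-tRNA from the product of EARS2 with the amidotransferase QRSL1, GATB and GATC. QARS1 over EARS2 was 3.22 and 3.26 in the WT libraries, against 1.60 and 1.62 in ZCCHC4 KO1, with replicates close to each other and groups far apart. This ratio is not among the 18 pairs. It restates the fall of QARS1 beside EARS2, which was higher in both ZCCHC4 KO1 libraries without passing. GATB was at 22.07 and 24.72 in the WT libraries, against 39.84 and 34.04 in ZCCHC4 KO1, a log2 fold change of 0.64 (standard error 0.156), which did not pass. With the trend on GC content removed GATB passed at 0.78 (adjusted p = 0.0260 from limma). QRSL1 was at 6.57 and 5.1 in the WT libraries, against 5.19 and 6.35 in ZCCHC4 KO1, and GATC at 20.61 and 20.23 in the WT libraries, against 21.12 and 21.24 in ZCCHC4 KO1. With 2 libraries per group an exact two-sided permutation test of a single ratio cannot go below p = 0.333, so these ratios are given without a test.

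**Figure D3:**
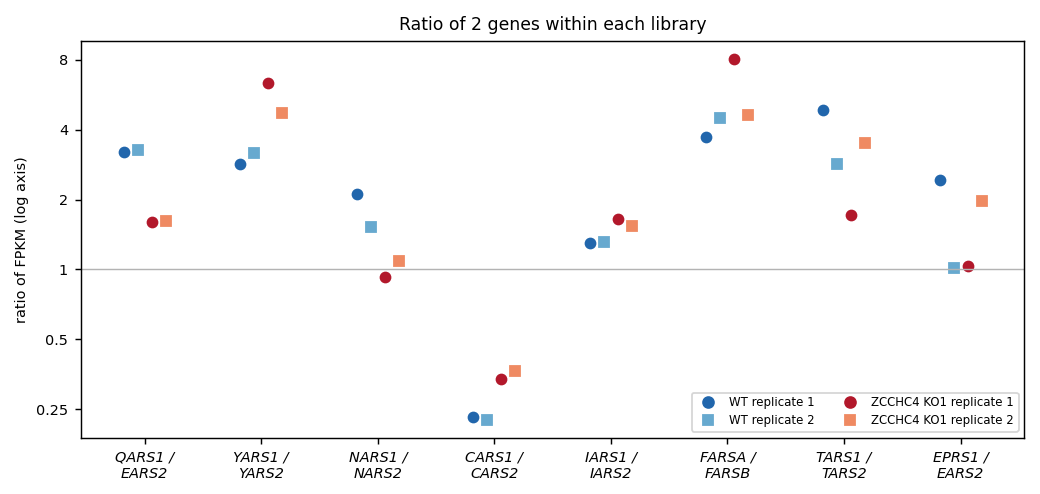
Ratio of the FPKM of 2 genes in each library, on a log axis, for 8 pairs; blue is WT and red ZCCHC4 KO1, circles are replicate 1 and squares replicate 2. QARS1 over EARS2 is near 3.2 in WT and 1.6 in ZCCHC4 KO1 with replicates that nearly coincide, whereas TARS1 over TARS2 and EPRS1 over EARS2 vary as much within a group as between groups.

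The spread between replicates followed the base composition of the genes. Across the 39 members the GC content of the longest transcript ran from 37.7% for AIMP1 to 61.7% for VARS1. All 15 members with a GC content under 45% were lower in WT replicate 2 than in WT replicate 1, and all 15 were higher in ZCCHC4 KO1 replicate 2 than in ZCCHC4 KO1 replicate 1. Of the 24 members at or above 45%, 2 were lower in WT replicate 2 and 5 higher in ZCCHC4 KO1 replicate 2. The Pearson correlation of GC content with the replicate difference, across these 39 genes of the same 4 libraries, was 0.714 in WT and -0.844 in ZCCHC4 KO1, and across 10559 tested genes it was 0.664 and -0.750. EPRS1 and TARS1, whose replicates differed most in both groups, are below 45%.

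The difference between the groups was less tied to GC content, with a Pearson correlation of 0.299 across the members and 0.141 across all tested genes. When the trend on GC content was removed from each library, the test passed 5 of the 39 members (12.8%), where 24.2% of all genes tested in that way passed. YARS1, TARS2 and CARS1 were higher, and QARS1 and NARS1 lower. QARS1 was then at a log2 fold change of -0.67 (adjusted p = 0.00646 from limma), and the median of the cytosolic genes moved to -0.01. The median of all genes tested moved from -0.03 to 0.05 with it.

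**Figure D4:**
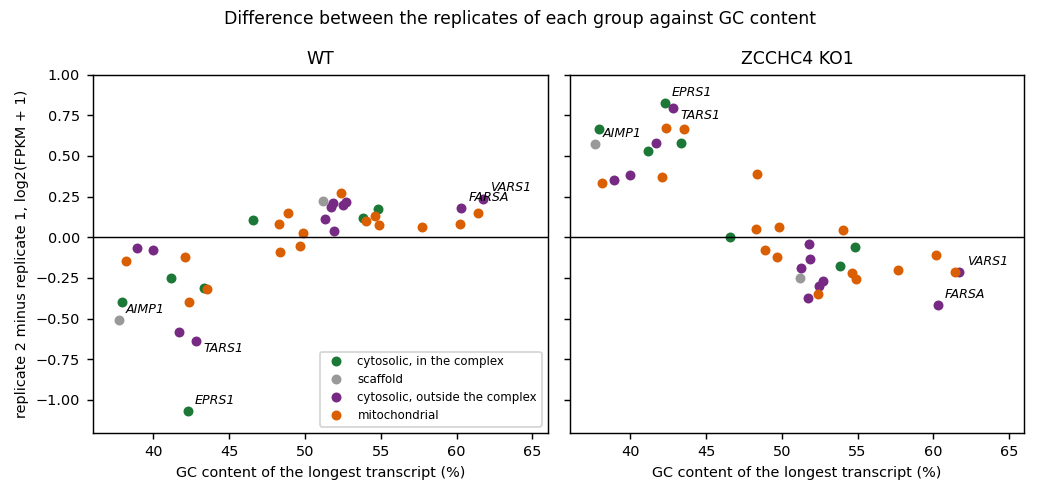
Difference between replicate 2 and replicate 1 in log2(FPKM + 1) against the GC content of the longest transcript in percent, for WT (left) and ZCCHC4 KO1 (right); each point is 1 gene, 37 of the 39 in all, coloured by group. The AT-rich genes on the left of each panel lie below 0 in WT and above 0 in ZCCHC4 KO1, with EPRS1 at the far end in both.

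The position of a gene was also compared with its change. For each member the 20 nearest tested genes were taken, 10 on each side along the chromosome where available. Around NARS1, from 50375046 to 62187056 on chromosome 18, 19 of the 20 neighbours were lower in ZCCHC4 KO1, with a median log2 fold change of -0.66, close to that of NARS1 itself. Around LARS1 on chromosome 5, 16 of 20 were lower with a median of -0.43, and LARS1 itself was at -0.09. Around FARS2 18 of 20 were lower and around AIMP1 16, but FARS2 was at 0.03 and AIMP1 at 0.16. Around EARS2 and around SARS2 16 of 20 were higher, and these genes were at 0.29 and 0.11. Over all 10726 tested genes, 5708 had a log2 fold change below 0. QARS1 lies among neighbours with a median of 0.03, of which 11 were higher and 9 lower. The neighbours of YARS1 had a median of -0.18, with 13 of 20 lower, those of TARS2 a median of -0.01, and those of IARS2 a median of -0.11. The value of NARS1 was thus near the median of the genes around it, and those of QARS1, YARS1 and TARS2 were far from the medians of theirs. QARS1, YARS1 and TARS2 were singled out for the size of their changes, so this distance follows in part from that choice. Whether a change belongs to the gene or to its region was not tested.

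HARS1 and HARS2 lie head to head on chromosome 5, with starts 85 bases apart at 140691370 and 140691455. Neither differed between the groups beyond its spread, with log2 fold changes of -0.08 (standard error 0.139) and 0.01 (standard error 0.155). HARS1 over HARS2 was 3.81 and 3.88 in the WT libraries, against 3.93 and 3.32 in ZCCHC4 KO1.

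Genes around the synthetases were described from lists of known function. Of 35 ATF4 targets other than synthetases, 33 were tested, of which 1 rose and 1 fell (6.06%, beside 5.98% of all genes tested), and their median log2 fold change was -0.05, beside -0.03 for all genes tested. With the trend on GC content removed 5 of them were called higher and 4 lower, where 24.2% of all genes were called. GDF15, a stress-induced secreted factor, was at 7.41 and 7.69 in the WT libraries, against 22.37 and 15.07 in ZCCHC4 KO1, and rose by a log2 fold change of 1.18 with a standard error of 0.228 (limma, adjusted p = 0.0444). VEGFA, an angiogenic growth factor, was at 32.03 and 27.14 in the WT libraries, against 14.95 and 15.57 in ZCCHC4 KO1, and fell by 0.91 on the log2 scale with a standard error of 0.159 (limma, adjusted p = 0.0338). Without WT replicate 1 or 2 neither gene passed (adjusted p = 0.0737 and 0.0610 for GDF15 and 0.333 and 0.102 for VEGFA, from limma), nor did GDF15 without ZCCHC4 KO1 replicate 1 (adjusted p = 0.0610) or VEGFA with the replicate number as a block (adjusted p = 0.0830). ATF4 itself was at 157.33 and 155.51 in the WT libraries, against 151.55 and 147.61 in ZCCHC4 KO1, and ASNS, asparagine synthetase, at 115.72 and 126.59 in the WT libraries, against 110.98 and 119.15 in ZCCHC4 KO1. Neither passed, with log2 fold changes of -0.06 (standard error 0.121) and -0.07 (standard error 0.129). The motif printed above for 6 synthetases was in 4 of the 28 genes of this list that had a promoter window.

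Of 14 genes for the kinases that sense stress and for eIF2 and its exchange factor, 1 fell and 0 rose (7.14%, beside 5.98% of all genes tested). With the trend on GC content removed 0 were called higher and 2 lower, where 11.3% of all genes were called higher and 12.9% lower. EIF2S3, the gamma subunit of eIF2, was at 187.14 and 161.85 in the WT libraries, against 71.58 and 97.1 in ZCCHC4 KO1, a log2 fold change of -1.05 with a standard error of 0.185 (limma, adjusted p = 0.0345). EIF2AK4, the kinase that binds uncharged tRNA, was at 11.88 and 9.1 in the WT libraries, against 5.67 and 9.46 in ZCCHC4 KO1, and did not pass.

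Of 19 tested genes for tRNA maturation and proofreading, 1 rose and 0 fell (5.26%, beside 5.98% of all genes tested). With the trend on GC content removed 5 were called higher and 0 lower, where 11.3% of all genes were called higher and 12.9% lower. PUS1, which makes pseudouridine in tRNA, was at 37.58 and 39.05 in the WT libraries, against 65.62 and 57.83 in ZCCHC4 KO1, a log2 fold change of 0.67 with a standard error of 0.137 (limma, adjusted p = 0.0499). PUS1 did not pass without WT replicate 1, WT replicate 2 or ZCCHC4 KO1 replicate 1 (adjusted p = 0.378, 0.271 and 0.0904 from limma). Of 6 cytosolic elongation factor genes, 1 rose and 0 fell (16.7%, beside 5.98% of all genes tested). That was EEF1A2, a tissue-restricted form of the factor that carries charged tRNAs to the ribosome, at 29.04 and 32.55 in the WT libraries, against 84.8 and 58.11 in ZCCHC4 KO1, a log2 fold change of 1.17 with a standard error of 0.207 (limma, adjusted p = 0.0354). EEF1A1, the main form, was at 4017.18 and 4142.6 in the WT libraries, against 2807.4 and 3266.43 in ZCCHC4 KO1, and its log2 fold change of -0.43 did not pass. With the trend on GC content removed 2 of the 6 elongation factor genes were called higher and 0 lower, where 11.3% of all genes were called higher and 12.9% lower. With no filter on low values GDF15, VEGFA, EIF2S3, PUS1 and EEF1A2 did not pass either, at adjusted p-values from limma of 0.0652 for VEGFA to 0.0966 for GDF15. In eBayes without a trend EEF1A2, EIF2S3 and PUS1 did not pass (adjusted p = 0.0513, 0.0541 and 0.0829 from limma), and PUS1 did not with the replicate number as a block (adjusted p = 0.198).

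Of 14 mitochondrial translation partners 0 passed in limma, where 5.98% of all tested genes did. With the trend on GC content removed 1 of them, GATB, was called higher and 0 lower, where 24.2% of all genes were called. As deposited, GATB was the 1 gene of this list with an unadjusted p under 0.05, where 22.9% of all tested genes had such a p. TUFM, which brings charged tRNAs to the mitochondrial ribosome, was at 263.51 and 315.24 in the WT libraries, against 388.81 and 315.45 in ZCCHC4 KO1. TSFM, its exchange factor, was at 33.8 and 37.44 in the WT libraries, against 48.37 and 41.29 in ZCCHC4 KO1. Of 17 genes of the response to interferon-gamma, which is known to raise WARS1, 6 were tested and 0 passed in limma as deposited. With the trend on GC content removed 2 of these 6, PSMB10 and IRF1, were called higher and 0 lower, where 24.2% of all genes were called. As deposited, PSMB10 and IRF1 were the 2 with an unadjusted p under 0.05, where 22.9% of all tested genes had such a p. The 2 highest in level were PSMB10 and TAP2, of which TAP2 did not have such a p. PSMB10, a subunit of the immunoproteasome, was at 20.91 and 24.31 in the WT libraries, against 46.95 and 33.53 in ZCCHC4 KO1, and TAP2, a peptide transporter, at 17.35 and 18.35 in the WT libraries, against 21.4 and 20.28 in ZCCHC4 KO1. PSMB10 and TAP2 were higher in both ZCCHC4 KO1 libraries, and WARS1 was lower in both.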

How the data were processed

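Total RNA of untreated WT cells and ZCCHC4 KO1 cells was sequenced, 2 libraries each. Bowtie2 and GRCh38 were used by the authors for alignment and RSEM for quantification, and FPKM values to 2 decimals were deposited for 16658 genes under Entrez identifiers. Versions, filters, strand and annotation are not given in the sources used here, and the instrument is an Illumina HiSeq in the labels but a BGISEQ-500 in the supplement. RefSeq symbols and positions (GRCh38.p14) matched 16384 genes.

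Genes with an FPKM of at least 1 in at least 2 libraries (10726) were tested on log2(FPKM + 1) in R 4.3.3 by limma 3.58.1 (lmFit, then eBayes with its trend option), with Benjamini-Hochberg adjustment over all of them. A gene was called at 0.05. The FDR of 0.001 and the fold of 2 are thresholds of the study. The script was tested on simulated data. GC content is that of the longest GENCODE v44 transcript (10559 of the genes tested), and its trend was removed by a natural spline with 4 degrees of freedom.

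The members, lists and alternatives were chosen with earlier results of these data known. Named are ZCCHC4, 37 of the 39 members (the others are counted but not reported here) and, of each list, up to 4 called genes or, with none, the 2 highest in level. ATF4, ASNS, EIF2AK1, EIF2AK4, EEF1A1, EEF1E1, GATB, GATC, IRF1 and QRSL1 were named after their values were seen. Alternatives changed the pseudocount (0.1), the filter (none, or a minimum of 5), the scaling (median ratios, quantiles), the GC trend, the eBayes trend, the replicate block and the libraries (each left out in turn). A crossed block and the count of groups that do not overlap were added after the values were seen.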

Additional observations from a re-analysis of the deposited data

How the results depend on the processing

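Calls among the synthetases moved with the processing, as did calls over all genes, and the cause was not tested. As deposited, 0 cytosolic genes were higher and 1 lower, where 5.98% of all genes were called. Median-ratio scaling called 1 cytosolic gene higher and 0 lower, where 9.39% of all genes were called. Quantile normalization called 1 higher and 1 lower, where 11.1% of all genes were called. No filter and eBayes without a trend each called 0 cytosolic genes lower, where 2.07% and 5.53% of all genes were called. Removal of the GC trend called 2 cytosolic genes higher and 2 lower, and 1 mitochondrial gene higher, where 24.2% of all genes were called. The cytosolic median log2 fold change of -0.13 went to -0.051 under median-ratio scaling and to -0.0070 under removal of the GC trend. That of the mitochondrial genes, 0.01, was -0.11 with a minimum FPKM of 5 (MARS2 and PARS2 dropped out) and 0.089 with quantile normalization. ZCCHC4 did not pass with a pseudocount of 0.1 (-1.92, adjusted p = 0.0551 from limma) or with no filter (-1.48, adjusted p = 0.115 from limma). With the GC trend removed, LARS1 turned to 0.026 and TARS1 to 0.057. No member passed the study's thresholds under any alternative run. At an FDR of 0.05 with a fold of 2, 0 members passed with all 4 libraries as deposited, but NARS1 did at -1.02 without WT replicate 2 and at -1.02 without ZCCHC4 KO1 replicate 2.

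Replicate numbers did not pair the libraries: the differences between replicates of WT and of ZCCHC4 KO1 had a Pearson correlation of -0.787 across genes. With the replicate block, 0 cytosolic genes were called lower, and calls over all genes went from 161 higher and 480 lower to 107 and 355. With the replicate block and the GC trend removed, 1 cytosolic gene was higher, 2 were lower and 1 mitochondrial gene was higher. In that fit 18.5% of all genes were called, the cytosolic median was -0.0070, and LARS1 and TARS1 were at 0.026 and 0.057. A crossed replicate block, added after the values were seen, called 5 cytosolic genes higher and 8 lower and 2 mitochondrial genes higher and 4 lower, among 2309 higher and 2986 lower genes.

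Leaving out each library in turn, with the lone library assumed to vary like the other group, gave 0 to 2 cytosolic genes higher, 0 to 3 lower, 0 to 1 mitochondrial genes higher and 0 to 2 lower. The most calls came without ZCCHC4 KO1 replicate 2. The cytosolic median ran from -0.23 to 0.0081, the mitochondrial from -0.091 to 0.0046 and ZCCHC4 from -1.81 to -1.15. The sign changed in 15 genes: AARS1 (-0.10 to 0.20), AIMP1 (-0.12 to 0.45), EPRS1 (-0.37 to 0.70), FARS2 (-0.15 to 0.20), FARSB (-0.35 to 0.031), HARS1 (-0.17 to 0.015), HARS2 (-0.030 to 0.051), IARS1 (-0.55 to 0.026), LARS1 (-0.42 to 0.24), LARS2 (-0.031 to 0.093), NARS2 (-0.10 to 0.27), PARS2 (-0.045 to 0.056), RARS2 (-0.33 to 0.0046), TARS1 (-0.51 to 0.28) and WARS2 (-0.63 to 0.043). FPKM values without read totals limit what can be said of low genes.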
